A study of Homo sapiens with 6 samples.

Results

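The mRNAs of 10 heterogeneous nuclear ribonucleoproteins (hnRNPs) were examined in RT-stop profiles of U2OS cells, a human osteosarcoma cell line. The genes were HNRNPU, HNRNPA1, HNRNPA2B1, HNRNPA3, HNRNPC, HNRNPD, HNRNPH1, HNRNPK, HNRNPM and HNRNPR, each represented by the RefSeq transcript under which its stops were listed, and they made up 10 of the 15739 transcripts with listed stops. In this assay each cDNA of poly(A)-selected mRNA ends where reverse transcriptase (RT) stopped, and the ends are counted per nucleotide. A pair of libraries had no dimethyl sulfate (DMS) and differed in the salt of the RT step, 150 mM K+ for the library labelled K+ and 150 mM Na+ for the library labelled Na+. Another pair held RNA folded and DMS-treated in vitro in 150 mM K+ or Li+, and the last pair came from U2OS cells that were unstressed or had been starved for 2 h before a treatment of the living cells with 8% DMS that lasted 5 min. All 4 DMS libraries were reverse transcribed in 150 mM K+. There was 1 library per condition, so no difference between conditions has a replicate check. Every interval given here is a 95% interval, which for ratios covers counting error only. Intervals for shares of sites treat the sites as independent, though many are neighbours. No marker list of U2OS cells was used and the identity of the line was not tested.

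For the 2 libraries without DMS, the sample labels give the opposite cation to the names of the files, and the study's methods name Li+ where the labels and its results text name Na+. The labels are followed here, and each of these libraries is called by its label. With the file names in place of the labels, the cations of these 2 libraries change places and no count or ratio changes. The direction of the comparison with rG4s does change. Under the labels most strong G stops are stronger in Na+, which holds rG4s less well than K+ does, and under the file names they are stronger in K+. The paper describes the stalling of RT by rG4s as dependent on K+, and reports a larger share of G among the stops that K+ favours over Na+. Over all transcripts, 4619 of 7074 strong G stops were at least 2-fold stronger in the library labelled Na+, and 261 in the library labelled K+. This direction is that of the paper under the file names, and the reverse of it under the labels. Which assignment is right was not tested. The depth ran from 12999691 listed stops (unstressed) to 35371061 (labelled K+). The 10 mRNAs held between 0.592% (starved) and 0.818% (labelled Na+) of them.

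hnRNPs bind nascent transcripts and mature mRNAs, and act in splicing, in the export, stability and translation of mRNA and in the packing of nuclear RNA. Several of them carry arginine and glycine-rich or glycine-rich stretches beside their RNA-binding domains, and since all glycine codons begin with GG, such stretches are G-rich in the mRNA. G-rich RNA can fold into RNA G-quadruplexes (rG4s), stacks of planar G quartets that are held by K+ better than by Na+ or Li+ and that halt RT at the 3′ end of the structure. DMS methylates A and C where they are not paired and the N7 of G where it is not in a quartet, so that G methylated while unfolded can no longer join an rG4, which weakens its later RT stop, and open A and C gain stops.

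A stop was scored by E, its count over the mean count per nucleotide of its transcript, and a strong stop had an E of at least 10. Strong stops at G were taken in either library without DMS, on transcripts with at least 1 stop per nucleotide in both. The hnRNP mRNAs held 65 of 7074 such stops, of which 56 were strong in the library labelled Na+, 27 in the library labelled K+ and 18 in both. They lay on 9 of the 10 mRNAs, with 34 on HNRNPA3, 9 on HNRNPA2B1, 5 on HNRNPK, 4 each on HNRNPU, HNRNPA1 and HNRNPR, 3 on HNRNPM, 1 each on HNRNPC and HNRNPH1 and none on HNRNPD. On HNRNPD, which encodes an AU-rich element binding protein, the highest E at G was 7.01 in the library labelled Na+ and 5.89 in the library labelled K+.

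The strongest stops of 8 mRNAs, at most 2 each by their count over both libraries without DMS, are shown first as sequence, since their G runs are what the results below turn on. Each line gives the RNA-sense sequence as DNA, 5′ to 3′, and ends at the nucleotide of the stop. Runs of at least 2 G are in capitals. Sequences and coordinates are from GENCODE release 44 on GRCh37 (hg19), and positions count from 1 at the 5′ end of the RefSeq transcript.
HNRNPK position 1850: ccttacaaacaGGGttGGGGGGGGGaaGGG
HNRNPK position 1849: tccttacaaacaGGGttGGGGGGGGGaaGG
HNRNPU position 2461: gagaGGtGGtGGcGGtGGaGGaagtGGtGG
HNRNPU position 2460: agagaGGtGGtGGcGGtGGaGGaagtGGtg
HNRNPA2B1 position 1034: aGGaGGaagaGGaGGatatGGtGGtGGaGG
HNRNPA2B1 position 1251: tatGGtccaGGaGGcagtGGaGGaagtGGG
HNRNPM position 2169: agaatGGGaagtccaaGGGGtgtGGcgtGG
HNRNPM position 1267: tgcaaagcaGGGaGGaGGtGGaGGtGGaGG
HNRNPR position 1538: aGGtcGGGGtcgtGGtGGGGGGagaGGtGG
HNRNPR position 69: caGGGGGGGGaGGGGGtGG
HNRNPH1 position 871: GGcgtGGtgcttatGGtGGaGGctatGGag
HNRNPA1 position 1518: tttgcaccccatgctgttgattgctaaatg
HNRNPA1 position 1528: atgctgttgattgctaaatgtaacagtctg
HNRNPC position 1327: ccgcgcctagtcccattttcacttcctttg

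The stops on HNRNPK lie in the 3′ UTR in exon 17 of 17, with the 30 nt before position 1850 at chr9:86584091-86584120 on the minus strand. Those on HNRNPU lie in the coding sequence in exon 12 of 14, at chr1:245018835-245018864 on the minus strand for position 2461. On HNRNPA2B1, position 1034 is coding in exon 9 of 12 at chr7:26233254-26233283 and position 1251 coding in exon 11 at chr7:26232163-26232192, both on the minus strand. Position 2169 of HNRNPM is coding in exon 16 of 16 at chr19:8553605-8553634 on the plus strand, and position 1267 is coding in exon 14, with 30 nt that cross an exon junction. On HNRNPR, position 1538 is coding in exon 11 of 11 at chr1:23637479-23637508 and position 69 is in the 5′ UTR in exon 1, where the annotated transcript gives only the last 19 nt, chr1:23670785-23670803, both on the minus strand. The stop of HNRNPH1 is coding, in exon 7 of 14, and its 30 nt cross an exon junction. Those of HNRNPA1, at chr12:54678594-54678623 and chr12:54678604-54678633 on the plus strand, and of HNRNPC, at chr14:21679194-21679223 on the minus strand, are in the last exon, in the 3′ UTR, and hold no run of at least 2 G.

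HNRNPK, whose protein binds C-rich RNA and DNA, had the stop with the highest E of the family. At position 1850, 231 nt past the stop codon, 4245 stops were listed in the library labelled Na+ and 32 in the library labelled K+. E was 271 and 2.21, a ratio of 123 (86.8 to 180). Relative to the mean at G alone, it stood at 186 in the library labelled Na+, below the 224 of HNRNPU position 2461. The library labelled Na+ stood far above the other at this nucleotide and at its neighbour, position 1849, with 1229 and 31 stops and a ratio of 36.7 (25.7 to 54.2). The other stops of this 3′ UTR, 2002, 2004 and 2005, had 701, 294 and 401 stops in the library labelled Na+ against 21, 34 and 11.

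HNRNPU encodes the scaffold attachment factor that ties RNA to chromatin. Its position 2461, in codon 748, had 1543 stops in the library labelled Na+ and 17 in the library labelled K+, and E of 261 and 2.77. The ratio was 94.2 (58.6 to 162). The G before it, position 2460, had 112 and 11 stops. Both are in a stretch where 8 of the 10 codons that end at the stop are glycine codons.

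HNRNPA2B1 and HNRNPA3 encode related proteins with a glycine-rich C-terminal part. Position 1034 of HNRNPA2B1 had 399 stops in the library labelled Na+ and 8 in the library labelled K+, a ratio of E of 52.5 (26.4 to 122), and 8 of its 10 codons were glycine codons. The last stretch of HNRNPA2B1, positions 1251 to 1266, held 5 strong stops. The first of these, position 1251, had 393 and 81 stops and a smaller ratio of 5.10 (4.01 to 6.57).

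HNRNPM and HNRNPR encode a splicing regulator and a close relative of SYNCRIP. On HNRNPM, position 2169 had 287 and 6 stops, a ratio of 48.1 (21.8 to 132), and position 1267 had 244 and 5, a ratio of 49.1 (20.8 to 153). On HNRNPR, position 1538 had 253 and 6, a ratio of 43.8 (19.9 to 121). Position 69 in the 5′ UTR of HNRNPR had 227 stops in the library labelled Na+ and was not listed in the library labelled K+, where nucleotides with fewer than 3 stops are left out. With 3 stops there, the floor, the ratio would be 78.6. HNRNPH1, whose protein binds G runs in pre-mRNA, had a single strong stop at G, position 871, with 223 and 18 stops and a ratio of 13.2 (8.14 to 22.6).

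HNRNPA1 and HNRNPC differed from these. HNRNPA1 encodes a splicing and export factor of the A/B type, and its position 1518 in the 3′ UTR had 234 stops in the library labelled Na+ and 216 in the library labelled K+, a ratio of 1.18 (0.973 to 1.42). Position 1528 had 75 and 90 stops, a ratio of 0.904 (0.657 to 1.24). Position 1327 of HNRNPC, whose protein binds U tracts, had 83 and 97, a ratio of 0.928 (0.684 to 1.26). All 3 intervals include 1. In the library labelled K+, 93.6% of the listed stops of HNRNPA1 lay in its 3′ UTR. Relative to the mean of the 3′ UTR alone, E at position 1528 was 4.87 (labelled Na+) and 5.33 (labelled K+), below 10. On that mean it was 15.2 and 12.8 at position 1518, and 10.5 and 11.1 at HNRNPC position 1327.

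**Figure D1:**
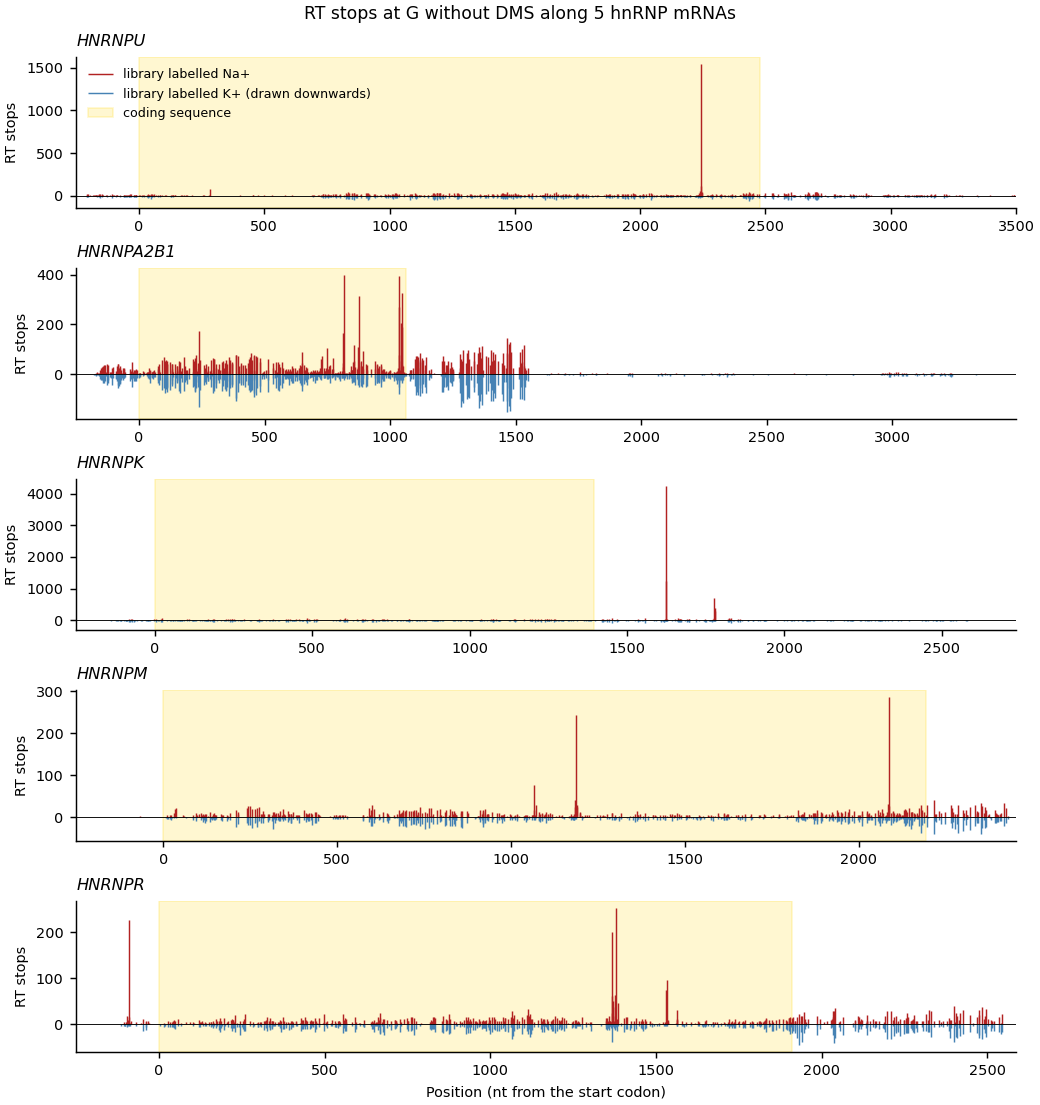
RT stops at G in the library labelled Na+ (red, upwards) and labelled K+ (blue, downwards) along 5 hnRNP mRNAs, against the distance from the start codon in nt, with the coding sequence shaded. The stops of HNRNPK at 4245 and HNRNPU at 1543 rise far above the other G of their mRNAs, and the blue bars have no such peaks.

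Over all 65 sites, 35 were at least 2-fold stronger in the library labelled Na+ and 1 was at least 2-fold stronger in the library labelled K+. Over all transcripts, 65.3% of the 7074 strong G stops were at least 2-fold stronger in the library labelled Na+ and 3.69% in the library labelled K+. The share of 53.8% for the family was therefore below that of all transcripts, and 24 of the 30 sites that did not differ by 2-fold towards Na+ lay on HNRNPA3. Without HNRNPA3, 25 of 31 (80.6%) were stronger in the library labelled Na+ and none in the library labelled K+. On HNRNPA3 only 16.6% of the 3′ UTR of 4567 nt was listed in the library labelled K+, against 42.8% of its coding sequence, and the mean there was 2.38 stops per nucleotide, the lowest of the 10 mRNAs in that library. The part of the low mean in the number of its strong stops was not tested. HNRNPA3 had strong stops at 44 A, 23 U and 13 C as well as at 34 G in either library.

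**Figure D2:**
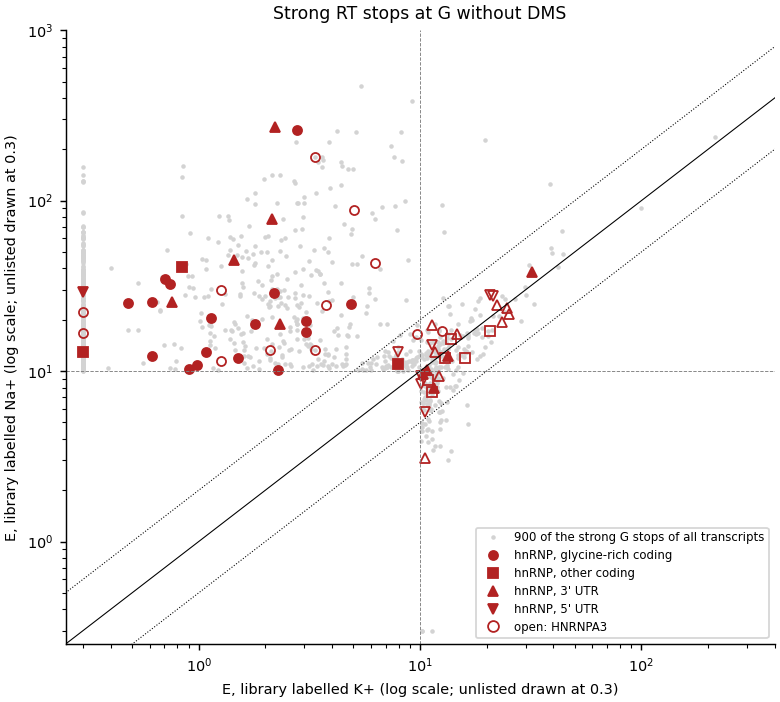
E in the library labelled K+ against E in the library labelled Na+ on log axes for the 65 strong G stops of the hnRNP mRNAs (red; open for HNRNPA3) and 900 drawn at random from all transcripts (grey), with the diagonal, dotted 2-fold lines and dashed lines at E of 10. The 35 sites above the upper dotted line are mostly circles, the glycine-rich coding sites, and the sites near the diagonal are mostly open symbols of HNRNPA3.

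The sites stronger in the library labelled Na+ lay mainly in glycine-rich coding sequence. Of the 35, 27 (77.1%, Wilson interval 61.0 to 87.9) were coding with at least 4 glycine codons among the 10 codons that end at the stop, on 6 mRNAs: HNRNPU, HNRNPA2B1, HNRNPA3, HNRNPH1, HNRNPM and HNRNPR. Another 2 were in other coding sequence, 5 in the 3′ UTR of HNRNPK and 1 in the 5′ UTR of HNRNPR. Over all transcripts, 8.17% (7.41 to 9.0) of the stops stronger in the library labelled Na+ were of this glycine-rich kind, and among coding ones 34.7% (31.9 to 37.6), against 27 of 29 (93.1%, 78.0 to 98.1) in the family. The coding sequences differ in the same way. In the 10 mRNAs, 20.8% of coding G were in glycine-rich windows, and in all transcripts past the minimum 1.75%.

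The share of glycine codons ran from 7.49% in HNRNPC, with no glycine-rich window, to 27.2% in HNRNPA3. HNRNPA1 had 24.9% glycine codons and 164 coding G in glycine-rich windows, but no strong G stop there. Only 8.22% of its coding nucleotides were listed in the library labelled K+, against 61.2% of its 3′ UTR. Reads had been kept only at unique positions, and 9.13% of the 25-nt words of HNRNPA1, the largest share in the family, occurred in another listed transcript. Where the next 25 nt were shared, 3.47% of its nucleotides were listed without DMS, and elsewhere 32.9%; whether unlisted pseudogenes share more was not tested. HNRNPD had 54 coding G in glycine-rich windows and 76.4% of its coding nucleotides listed in the library labelled K+, and no strong G stop.

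The glycine codons used differed between the mRNAs. HNRNPA3 had 48 GGT and 33 GGA codons among 103, HNRNPA2B1 had 44 GGA among 86, and HNRNPM had 58 GGC among 130. Of the 29 coding stops stronger in the library labelled Na+, 17 fell on the middle nucleotide of a codon, 7 on the first and 5 on the last. The middle nucleotide is the last G of GGA, GGC and GGT, and these counts were not set beside those of all transcripts. Stops within 30 nt of each other were joined into a stretch, which gave 28 stretches on the 9 mRNAs. The 35 sites fell into 17 of them, and the 27 glycine-rich sites into 12.

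All 35 sites stronger in the library labelled Na+ had a motif of 4 runs of GG or more with 1 to 9 nt between runs in the 45 nt ending at the stop, or in the 19 annotated nt at HNRNPR position 69. It was searched on the sense strand, and since G may stand between runs, 1 long run can count as more than 1. With unbroken runs only, a definition added after seeing the data, 30 of the 35 had it, and the other 5 were HNRNPR position 69 and positions 1849, 1850, 2002 and 2004 of HNRNPK. Of the other 30 sites, 23 had sequence to search and 2 of these had the motif, while 7, in the 5′ UTR of HNRNPA3, precede the annotated transcript. Over all transcripts, 86.9% of the stops stronger in the library labelled Na+ that had sequence held the motif, and 10.3% of the others. Of the 45-nt windows that end at any G, 20.8% held the motif in the 10 mRNAs and 13.3% in all transcripts past the minimum, and with unbroken runs 19.7% and 12.6%. The stricter motif of 4 runs of GGG or more with 1 to 7 nt between runs stood at 1 of the 35 sites, HNRNPK position 1850, where it takes the run of 9 G as more than 1 run, and with unbroken runs at none. Without the rule of unbroken runs, 25.8% of the stops stronger in the library labelled Na+ over all transcripts held the stricter motif. The median number of G in the 30 nt ending at the stop was 16 at the 35 sites and 7 at the 23 others with sequence.

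The same G stops were then compared between RNA folded in vitro in K+ and in Li+. Of 57 sites with at least 10 stops over both libraries, 12 had an E in K+ of at least 2 times that in Li+, and 3 the reverse. Over all transcripts the shares were 16.4% and 5.32% of 3216 sites. Among the sites stronger in the library labelled Na+, 9 of 27 were 2-fold stronger in K+ and 1 in Li+, against 26% and 4.46% of 1637 over all transcripts. The median ratio was 1.50 for these 27 and 1.01 for the 30 other sites.

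HNRNPK position 1850 had 253 stops in K+ and 109 in Li+, a ratio of E of 3.03 (2.41 to 3.83). HNRNPU position 2461 had 60 and 37, a ratio of 2.18 (1.42 to 3.37). HNRNPA2B1 position 1034 had 37 and 14, a ratio of 3.66 (1.93 to 7.32). These 3 intervals lie above 1. HNRNPR, HNRNPH1 and HNRNPM had 20 stops or fewer at each named position in vitro. HNRNPM position 1267 had 10 in K+ and 4 in Li+, a ratio of 3.44 (0.991 to 15), and HNRNPR position 69 had 20 and 18, a ratio of 1.50 (0.752 to 3.0). HNRNPR position 1692, named here after its values were seen, had 15 and 8, a ratio of 2.53 (1.01 to 6.88). HNRNPR position 1538 had 10 stops in each library, a ratio of 1.35 (0.503 to 3.61), HNRNPM position 2169 had 5 in K+ and 13 in Li+, a ratio of 0.529 (0.148 to 1.58), and HNRNPH1 position 871 had 3 and 7, a ratio of 0.579 (0.0966 to 2.54). Of these 6 intervals only that of HNRNPR position 1692 excludes 1, and only that of HNRNPM position 2169 excludes 2. At HNRNPA1 position 1518 there were 71 and 115 stops and the ratio was 0.853 (0.626 to 1.16).

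In cells, the comparison asks whether G stops became stronger with starvation. Of 35 sites with at least 10 stops over both libraries, 13 were at least 2-fold stronger in starved cells and 1 in unstressed cells. Over all transcripts the shares were 53.6% and 1.59% of 2144 sites. The median ratio was 1.78 for the family and 2.16 for all sites. Among sites stronger in the library labelled Na+, 6 of 17 were 2-fold stronger in starved and 1 in unstressed cells, against 67.7% and 1.65% of 848 over all transcripts, and the median ratio was 1.19 against 2.94. Of these 6, 5 were the sites in the 3′ UTR of HNRNPK, several of them neighbours. Among glycine-rich coding sites, 1 of 13 was higher by 2-fold and 1 was lower, with a median of 1.1. Over all transcripts 18 of 49 were higher and 2 lower, with a median of 1.57. The 13 sites lay on HNRNPA2B1, HNRNPA3 and HNRNPU only, most of them on HNRNPA2B1, and several were neighbours. The median share of all stops that fell at G over the 10 mRNAs was 11% in unstressed and 17.2% in starved cells, and 11.5% and 18.4% over all transcripts. The share at U was higher in starved cells too, 9.12% against 5.97%. Relative to the mean at G alone, 8 of 35 sites were higher by 2-fold and 2 lower, and over all transcripts 671 and 122 of 2144.

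The stops of HNRNPK and HNRNPU went apart. HNRNPK position 1850 had 27 stops (unstressed) and 127 (starved), a ratio of E of 4.06 (2.66 to 6.40), and position 1849 had 11 and 49, a ratio of 3.84 (1.97 to 8.19). Position 2002 had 5 and 33, a ratio of 5.69 (2.21 to 18.7), and its ratio of K+ over Li+ in vitro was 0.798 (0.341 to 1.78). Position 2004 had 3 and 14, a ratio of 4.02 (1.12 to 21.8). Position 2005 was not listed in unstressed cells and had 16 stops in starved cells. HNRNPU position 2461 had 22 and 21 stops, a ratio of 1.04 (0.544 to 1.98). Its neighbour, position 2460, had 9 and 3 stops and a ratio of 0.363 (0.0632 to 1.46), and was the site 2-fold stronger in unstressed cells. HNRNPA2B1 position 1251 had 29 and 53, a ratio of 1.20 (0.749 to 1.96). The interval of HNRNPK position 1850 does not overlap that of HNRNPU position 2461, and that of HNRNPK position 1849 does. Relative to the mean at G alone, the ratios were 2.40 (1.58 to 3.79) for HNRNPK position 1850, 2.28 (1.17 to 4.86) for position 1849 and 0.663 (0.347 to 1.26) for HNRNPU position 2461. HNRNPA2B1 position 1034 had 8 and 9 stops, a ratio of 0.738 (0.253 to 2.20). A 2-fold change either way could not be seen at those counts. HNRNPM position 1267 had 7 stops in unstressed cells and was not listed in starved cells, and HNRNPM position 2169 and HNRNPR position 69 were listed in neither. HNRNPH1 position 871 and HNRNPR position 1538 were not listed in unstressed cells and had 6 and 4 stops in starved cells.

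On HNRNPA1 and HNRNPC, the stops without a G run were compared in the same way. HNRNPA1 position 1518 had 29 stops (unstressed) and 226 (starved), a ratio of 3.31 (2.24 to 5.05), and position 1528 had 13 and 69, a ratio of 2.25 (1.23 to 4.44). HNRNPC position 1327 had 21 and 65, a ratio of 1.78 (1.07 to 3.06). Relative to the mean at G alone, the ratios were 2.12 (1.43 to 3.23), 1.44 (0.790 to 2.84) and 1.04 (0.626 to 1.79), so that only the first interval stayed above 1.

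A folding score places E in cells between E in vitro in Li+ (score 0) and in K+ (score 1), and was taken only at the 12 sites where E in vitro was at least 2-fold higher in K+. HNRNPK position 1850 scored -0.19 in unstressed and 0.72 in starved cells. HNRNPU position 2461 scored 0.47 and 0.52, and HNRNPA2B1 position 1034 scored 0.08 and -0.04. HNRNPK position 1849 went from -0.25 to 1.67 and HNRNPM position 1267 the other way, from 1.07 to -0.41, with 7 stops in unstressed cells and none listed in starved cells. HNRNPR position 1692, with 3 and 5 stops, went from 0.01 to 0.51. HNRNPA2B1 position 1031, also named after its values were seen, had 4 and 7 stops and went from 0.08 to 0.14. The rest of the 12 lay on HNRNPA3. The score depends on which nucleotides give the mean. With the mean of the region of the stop in place of the whole transcript, the scores were -0.30 and 0.23 for HNRNPK position 1850, 1.43 and 1.66 for HNRNPU position 2461 and 0.28 and 0.11 for HNRNPA2B1 position 1034. They were -0.50 and 0.62 for HNRNPK position 1849, 1.76 and -0.39 for HNRNPM position 1267 and 0.89 and 2.71 for HNRNPR position 1692. With the same mean, the ratios of starved to unstressed cells were 4.02 for HNRNPK position 1850 and 1.1 for HNRNPU position 2461. The share of stops at A or C, which reports on DMS, had a median of 83.2% in unstressed and 73.3% in starved cells. The part of this difference in the ratios at G and in the scores was not tested.

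**Figure D3:**
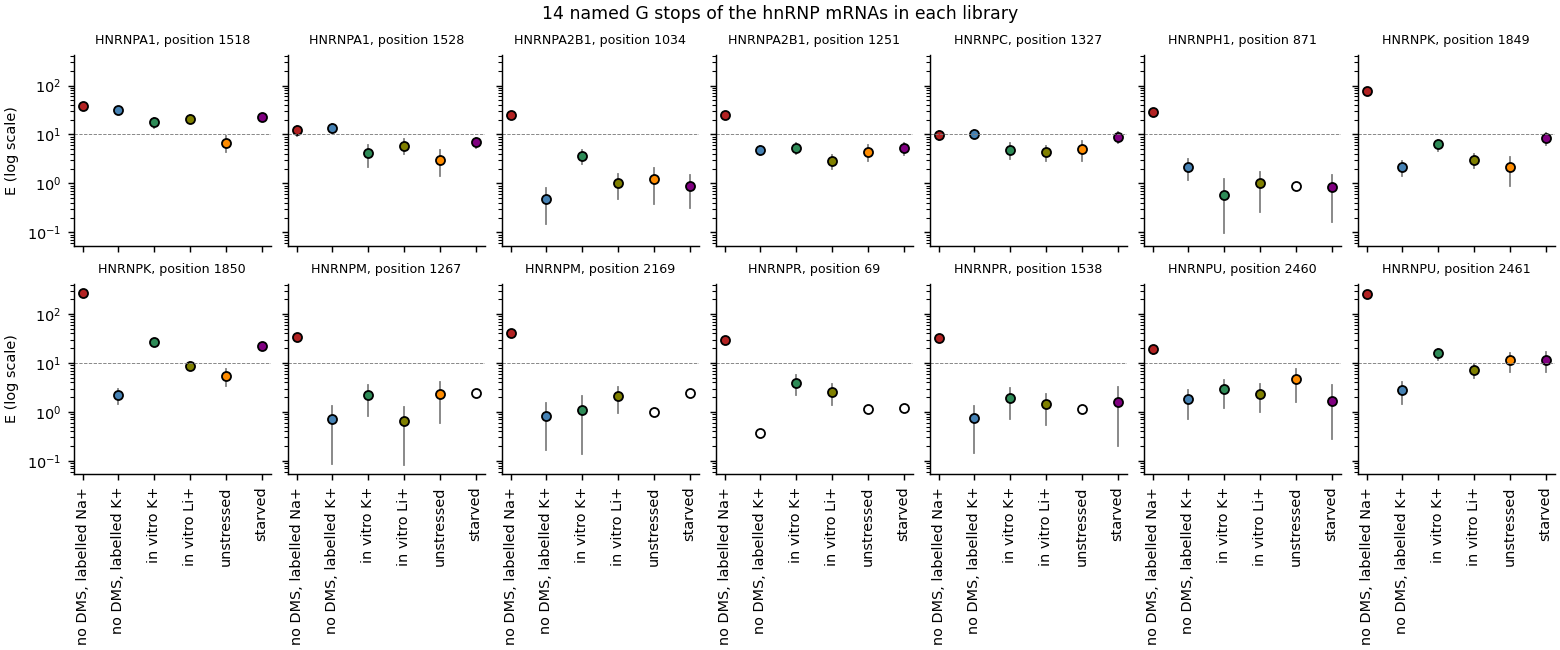
E on a log axis of the 14 named G stops in each of the 6 libraries, with bars for the 95% counting error of the stops (normal approximation), open circles at 3 stops for nucleotides not listed and a dashed line at E of 10. HNRNPK position 1850 stands higher in starved than unstressed cells (21.8 and 5.37), HNRNPU position 2461 stands alike in both (11.7 and 11.2), and the stops of HNRNPA1 and HNRNPC are alike in both libraries without DMS.

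The regions that carried the stops differed between cells and in vitro RNA. The median share of listed stops in the 3′ UTR was 43.1% for in vitro K+, 62.8% (unstressed) and 67.1% (starved), and over all transcripts 36.8%, 52.5% and 52.0%. It was higher in unstressed cells than in vitro in K+ on all 10 mRNAs, against 89.8% of 1307 transcripts, and higher in starved cells than in vitro on all 10, against 96.7%. HNRNPM rose from 20.2% in vitro to 42.8% in unstressed and 62.3% in starved cells, while its coding sequence held 3.76, 1.70 and 0.373 listed stops per nucleotide. HNRNPU rose from 27.3% to 57.6% and 59.6%. HNRNPA1, with 91.0%, 91.5% and 93.2%, had nearly all of its stops in the 3′ UTR throughout. With starvation the share went the other way on 3 mRNAs, from 79.9% to 74.1% on HNRNPC, from 82.9% to 77.5% on HNRNPH1 and from 64.2% to 63.8% on HNRNPK. Values for coding G stops in cells therefore rest on few stops.

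The share of stops at A or C reports on DMS. Its median over the 10 mRNAs was 45.9% and 49.2% in the libraries labelled Na+ and K+, 76.7% for in vitro K+, 76.3% for in vitro Li+, 83.2% in unstressed and 73.3% in starved cells. All transcripts past the minimum in all 6 libraries, 1397 in number, had medians of 50.5%, 51.0%, 77.2%, 77.0%, 83.5% and 73.7%. The members lay close together in each DMS library, from 80.2% (HNRNPM) to 84.5% (HNRNPA1) in unstressed cells and from 69.3% (HNRNPM) to 75.3% (HNRNPA1 and HNRNPU) in starved cells. HNRNPM was also the lowest in vitro, with 72.4% in K+ and 73.0% in Li+.

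The fall with starvation was found on each of the 10 mRNAs, from 7.8 to 10.9 percentage points, with a median of 9.7, and 99.9% of all transcripts fell, with a median of 9.7. The rise from in vitro K+ to unstressed cells was 6.0 to 7.9 points on the 10 mRNAs, and 99.4% of all transcripts rose. K+ and Li+ in vitro differed by -0.6 to 1.0 points. C moved more than A. Stops per C over the mean per nucleotide had a median of 0.699 in vitro in K+, 0.998 in unstressed and 0.705 in starved cells, and stops per A one of 2.15, 2.24 and 2.07. Without DMS, HNRNPK had the lowest share in the library labelled Na+, 42.6% against 50.0% in the library labelled K+, and 34.3% of its stops there were at G against 23.3%.

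**Figure D4:**
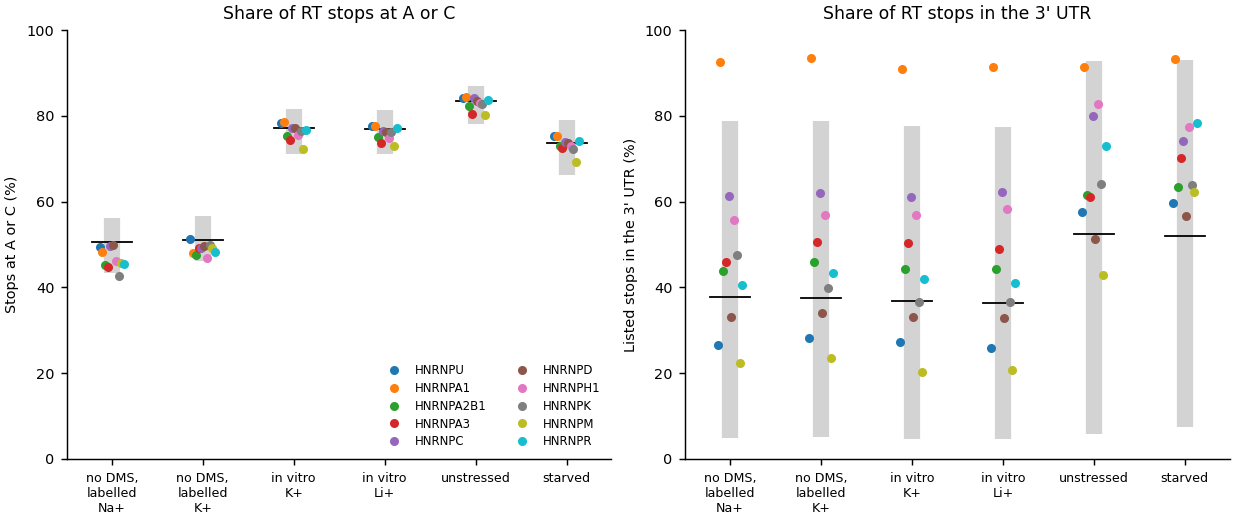
Share of stops at A or C (left, %) and share of listed stops in the 3′ UTR (right, %) of the 10 hnRNP mRNAs (points) in each library, with the median (line) and the range from the 5th to the 95th percentile (grey) of all transcripts past the minimum. The A or C shares of the 10 mRNAs lie near the line in each DMS library, at medians of 76.7%, 76.3%, 83.2% and 73.3%, and the 3′ UTR shares are higher in cells than in vitro.

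Single A and C nucleotides were compared by their share of the A and C stops of the transcript. Between unstressed cells and in vitro K+, 569 of 3642 nucleotides (15.6%) were at least 2-fold higher in cells and 893 (24.5%) at least 2-fold lower, against 15.9% and 16.2% of all transcripts. Most of those lower were A: 26.7% of A and 14% of C were lower, and 11.9% of A and 34.0% of C were higher. Over all transcripts 17.8% of A and 11.2% of C were lower, and 13% of A and 24.9% of C higher. HNRNPU had the largest share of lower nucleotides, 32.2%, and HNRNPA1 the smallest, 8.28%. With at least 50 stops in place of 20, 17.5% were higher and 15.3% lower, against 14.1% and 11.5% of all transcripts. Between starved and unstressed cells, 324 of 2757 (11.8%) were higher and 296 (10.7%) lower, against 13.1% and 11% of all transcripts. HNRNPA3 stood out with 33 of 133 lower and 10 higher. Between K+ and Li+ in vitro, 140 of 4805 (2.91%) were higher and 175 (3.64%) lower, against 3.4% and 4.19%.

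The most heavily stopped of the nucleotides that differed between unstressed cells and in vitro K+, or between starved and unstressed cells, were A in 3′ UTRs. The 3 below are shown with 10 nt on each side and the A of the stop in capitals, since each stands first or second in at least 1 of these comparisons.
HNRNPA2B1 position 1517: gtaaaaaaaaAtgcctttgag
HNRNPK position 1946: ccccccatgtAattattgtga
HNRNPA1 position 1508: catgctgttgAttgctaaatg
HNRNPA2B1 position 1517 (chr7, 26231741) had 188 stops in vitro in K+, 270 in unstressed and 171 in starved cells. Its share was 2.02-fold (1.67 to 2.45) that in vitro in unstressed cells, and 0.469-fold (0.385 to 0.570) in starved against unstressed cells. HNRNPK position 1946 (chr9, 86583995) had 96, 175 and 61 stops, and its share in unstressed cells was 3.17-fold (2.46 to 4.12) that in vitro, with its neighbour 1947 at 3.19-fold (2.43 to 4.22). HNRNPA1 position 1508 (chr12, 54678613), 10 nt before the G stop at 1518, had 44, 73 and 315 stops and was 2.06-fold (1.59 to 2.69) higher in starved than in unstressed cells. It had 145 and 159 stops in the libraries labelled Na+ and K+ without DMS, so that RT also halts there without DMS. HNRNPA2B1 position 1546 went from 183 stops to 118 with starvation, a ratio of 0.477 (0.375 to 0.605).

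In vitro, the 3 most heavily stopped of those that differed between K+ and Li+ were HNRNPA2B1 position 731 with 38 and 110 stops and a ratio of 0.477 (0.321 to 0.696), HNRNPD position 1691 with 29 and 76 and 0.497 (0.313 to 0.772), and HNRNPA2B1 position 400 with 61 and 32 and 2.63 (1.69 to 4.17). The correlation of log2(count + 1) over the A and C nucleotides of an mRNA had a median of 0.74 over the 10 mRNAs between K+ and Li+ in vitro, 0.62 between unstressed and starved cells and 0.43 between in vitro K+ and unstressed cells. These are descriptions across nucleotides of the same libraries, which are not independent, and low counts lower them. HNRNPA1 was highest in the last 2, with 0.77 and 0.74.

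The share of a transcript among all stops of a library, in stops per 1000000 stops of the library (SPM), was the last measure. It depends on the amount of mRNA, its length, its DMS reactivity and its RT stops, and fewer mRNA copies per cell cannot be told apart from fewer stops per copy. Without DMS in the library labelled K+, the level per 1000 nt ran from 47.8 SPM for HNRNPA3 through 123 for HNRNPU, 134 for HNRNPA1, 142 for HNRNPM, 163 for HNRNPR, 164 for HNRNPH1, 188 for HNRNPC, 258 for HNRNPD and 291 for HNRNPK to 334 for HNRNPA2B1. These levels count the whole annotated length, also where few stops were listed. HNRNPR and HNRNPH1 are not told apart by them.

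Shares hardly differed between cations. In vitro the log2 ratio of K+ over Li+ ran from -0.03 to 0.06 over the 10 mRNAs, and between the library labelled K+ and that labelled Na+ from -0.18, for HNRNPK with 861 and 972 SPM, to 0.05. None of the 10 passed 1.5-fold. Of all transcripts 0% passed it either way between the in vitro libraries, and 0% (higher) and 0.143% (lower) between those without DMS. Between unstressed cells and in vitro K+, HNRNPA1 was 1.76-fold higher (1.70 to 1.81), at 425 against 242 SPM, and the other 9 stayed within 1.5-fold, while 21.8% of all transcripts were higher and 3.65% lower by 1.5-fold.

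Between starved and unstressed cells, 4 of the 10 mRNAs were lower by 1.5-fold and none was higher, against 30.9% lower and 29.6% higher of all transcripts. HNRNPM fell 3.97-fold, from 396 to 99.5 SPM, with a ratio of 0.252 (0.241 to 0.262), the 36th lowest of 1397 transcripts. HNRNPD fell from 619 to 244, a ratio of 0.395 (0.384 to 0.406). HNRNPU fell from 698 to 386, a ratio of 0.553 (0.539 to 0.566), and HNRNPR from 366 to 212, a ratio of 0.578 (0.559 to 0.598).

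The other 6 stayed within 1.5-fold. HNRNPK had 773 and 540 SPM, a ratio of 0.698 (0.683 to 0.714), and HNRNPA3 394 and 295, a ratio of 0.749 (0.726 to 0.772). HNRNPA2B1 had 1270 and 1160, a ratio of 0.918 (0.903 to 0.933), and HNRNPC 694 and 728, a ratio of 1.05 (1.03 to 1.07). HNRNPH1 had 408 and 521, a ratio of 1.28 (1.24 to 1.31), and HNRNPA1 had 425 and 603, a ratio of 1.42 (1.38 to 1.46). HNRNPA1 and HNRNPH1 were thus the highest and HNRNPM and HNRNPD the lowest, with no interval shared between neighbours other than HNRNPU and HNRNPR, whose intervals overlap.

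The ratio moved with base composition. Across the 1397 transcripts its correlation with the G+C share was -0.68, a description over transcripts that share libraries, and across the 10 mRNAs -0.63. HNRNPM, at 53.1% G+C the highest of the 10, was the lowest, and the 10 mRNAs otherwise had 37.7 to 45.7%. Relative to the median of the 200 transcripts nearest in G+C, 8 of the 10 were lower by 1.5-fold and none was higher, against 22.3% lower and 19% higher of all transcripts. The log2 ratios were then -1.67 for HNRNPD, -1.52 for HNRNPU, -1.36 for HNRNPM, -1.34 for HNRNPR, -1.23 for HNRNPA3, -1.18 for HNRNPK, -0.90 for HNRNPA2B1, -0.67 for HNRNPC, -0.24 for HNRNPH1 and 0.15 for HNRNPA1. HNRNPC and HNRNPH1, above 1 by their share of the library, were below it on this scale. The part of base composition in the difference was not tested.

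**Figure D5:**
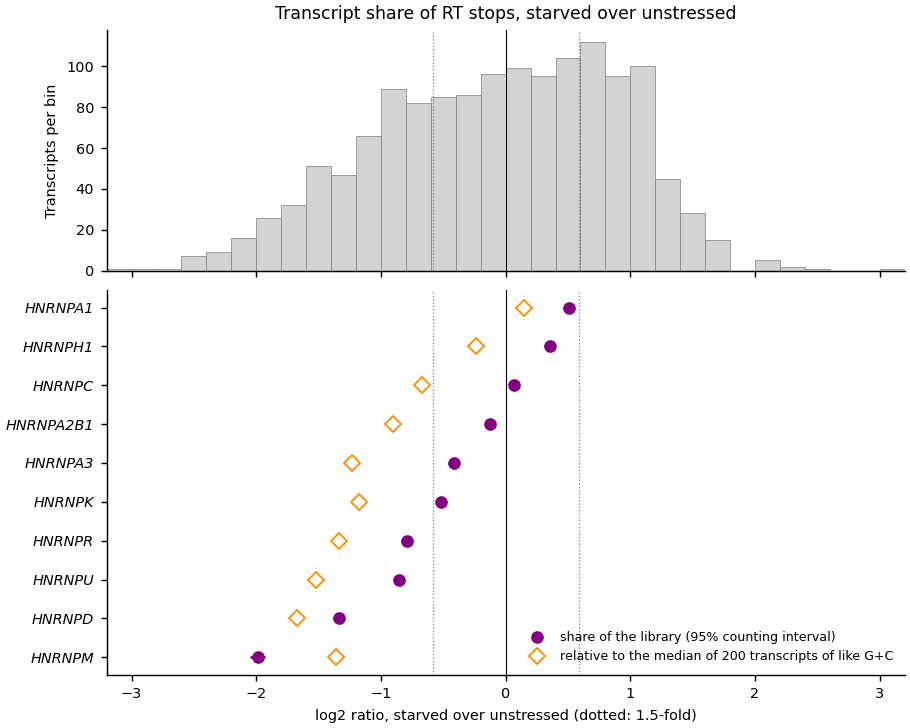
Upper panel, number of transcripts per bin of the log2 ratio of the share of stops, starved over unstressed, for 1397 transcripts; lower panel, the 10 hnRNP mRNAs by their share of the library (filled, with counting interval) and relative to 200 transcripts of like G+C (open), with dotted lines at 1.5-fold. The filled points run from -1.99 (HNRNPM) to 0.50 (HNRNPA1), and 9 of the 10 open points lie below 0.

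Other genes of the family and the SR splicing factors, which bind exonic enhancers, were compared by counts. Of 18 other hnRNP and related genes, 11 passed the minimum in all 6 libraries, and 6 of these were lower by 1.5-fold in starved cells and none higher, with a median log2 ratio of -1.37. The lowest were HNRNPAB at -2.02, PTBP1 at -1.93 and HNRNPL at -1.74, and the highest HNRNPH3 at 0.36, HNRNPDL at 0.14 and RBMX at 0.02. Of 12 SR factors, 10 passed, with 2 lower, 1 higher and a median of 0.06. The 10 hnRNP mRNAs had a median of -0.47 and all transcripts 0.00. Relative to transcripts of like G+C, the medians were -1.21 for the 10 mRNAs, -0.66 for the other family genes and -0.68 for the SR factors.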

How the data were processed

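Reads had been freed of duplicates, molecular barcodes and adapters by the authors and placed by Bowtie, with no mismatch and at 1 position only, on transcripts of hg19; the authors deposited the stop count wherever it reached 3. The deposited ratio is, in the files, the count over the mean count of the same base in the transcript. E was rebuilt from these base means and the base composition. Nucleotides not listed counted as 0. GENCODE release 44 on GRCh37 gave sequence and coding regions to 10366 of the 11031 transcripts (94%) that had 15 or more listed bases. Groups followed the labels. With 1 library per condition no test between conditions was made: ratios have exact conditional binomial intervals at 95% for counting error only, and calls were made at 2-fold (sites) or 1.5-fold (transcripts). Shares of sites have Wilson intervals at 95%, which treat the sites as independent. Sites needed at least 10 stops over both libraries, A and C nucleotides at least 20.

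Named were all 10 members, per member the 2 strong G stops with the highest count without DMS, the 3 most stopped A or C nucleotides past the fold per comparison, and the 3 highest and lowest other family genes. The single G stops of HNRNPA3 are not reported here. The members and lists were chosen with earlier results of these data known. In total 29 alternatives were listed at the design stage and 8 were added after seeing the data. The comparison between cations was tested on simulated data of 600 transcripts: of 200 G sites with a planted 4-fold change, 179 were called, as were 316 of 2120 strong sites without one. Software was numpy 2.4.6, scipy 1.17.1, pandas 2.3.3 and matplotlib 3.10.9 under Python 3.11.15.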

Additional observations from a re-analysis of the deposited data

How the results depend on the processing

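No paired analysis was possible because each condition has 1 library. With the cation labels exchanged, the family had 27 strong G stops under the label Na+ and 56 under K+. Strong G stops numbered 304 (226 labelled Na+, 204 labelled K+) at E of at least 5, 28 (26 and 8) at E of at least 20, 37 (29 and 11) after thinning to the smallest library and 31 (29 and 5) without HNRNPA3. Over all transcripts there were 54649, 2700 and 2459 in the first 3 of these, against 7074. The family kept 65 with a minimum of 2 stops per nucleotide and with no minimum, where all transcripts had 3170 and 70354. At 1.5-fold, 3 of 65 sites were stronger in the library labelled K+ (all transcripts 520 of 7074). At 2-fold without HNRNPA3, 0 were. In vitro, the sites stronger in Li+ numbered 6 of 57 at 1.5-fold (all transcripts 433 of 3216). At a minimum of 20 stops they numbered 1 of 41 (all 50 of 1750). In starved cells, 20 sites were stronger at 1.5-fold (all transcripts 1481 of 2144), and 8, with 2 weaker, relative to the mean over G and U (all 692 and 122) or over G alone (all 671 and 122). At a minimum of 20 stops 0 were weaker (all 7).

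The median share at A or C over the members moved in the order labelled Na+, labelled K+, in vitro K+, in vitro Li+, unstressed and starved to 47.8%, 52.5%, 80.3%, 79.9%, 90.4% and 79.5% in coding sequence and to 43.8%, 45.1%, 71.5%, 70.9%, 76.3% and 67.0% with strong stops left out. By listed counts alone it was 46.3% (labelled Na+), 78.5% and 77.2% (in vitro K+ and Li+), 86.7% (unstressed) and 76.0% (starved). For in vitro K+, unstressed and starved, the medians over all transcripts were 75.8%, 81.5% and 71.5% with strong stops left out. They were 83.5%, 92.4% and 79.7% in coding sequence, and 82.5%, 89.8% and 77.9% by listed counts. The fall in starved and the rise in unstressed cells held on all 10 mRNAs in each of these settings.

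Among A and C nucleotides, unstressed over in vitro K+, 206 were higher and 180 lower at a minimum of 50 stops (17.5% and 15.3%, all transcripts 14.1% and 11.5%), 232 and 450 at 3-fold (6.37% and 12.4%, all 6.06% and 6.83%), and 567 lower after thinning (20.4%, all 13.2%). For starved over unstressed, the numbers were 57 and 75 (5.69% and 7.49%, all 9.7% and 8.44%), 105 and 96 (3.81% and 3.48%, all 4.78% and 3.07%), and 214 higher after thinning (9.95%, all 11.1%). For K+ over Li+ they were 15 and 17 (0.744% and 0.844%, all 0.604% and 0.925%), 15 and 32 (0.312% and 0.666%, all 0.409% and 0.713%), and 114 lower after thinning (4.23%, all 3.9%). By transcript share, 2 mRNAs were lower in starved cells at 2-fold (all transcripts 18.4%) and 8 relative to like G+C (all 22.3%), where HNRNPC turned to -0.67. The cause of these shifts was not tested. Of 117 such comparisons, 59 stayed within 1.5 times or the counting interval. Depth limits the coding G stops in cells, most of which have fewer than 30 stops.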

Other observations

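Strong stops without DMS were also found at other bases. In either library the 10 mRNAs had strong stops at 57 A, 33 U and 13 C beside the 65 at G, and without HNRNPA3 at 13 A, 10 U and no C beside 31 at G. Over all transcripts past the minimum there were 4204 A, 2014 U and 1648 C beside 7074 G. HNRNPA1 had 8 A and 8 U beside its 4 G, so that most of its strong stops were not at G, while HNRNPK, HNRNPM, HNRNPR and HNRNPH1 had strong stops at G only.

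The other family genes had 116 strong G stops, of which 75 (64.7%) were at least 2-fold stronger in the library labelled Na+ and 47 were in glycine-rich coding sequence. Over all transcripts, 397 of the 6937 strong G stops with sequence (5.72%) were of this kind. The SR factors had 19, of which 18 were stronger in the library labelled Na+ and 10 were counted as glycine-rich.

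Few stops were listed far into several 3′ UTRs. Past 300 nt after the stop codon, HNRNPU had 11.4% of its listed stops in vitro in K+ and 30.3% in starved cells, and HNRNPD had 3.75% and 6.48%, while HNRNPA1 had 61.8% and 58.5%.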
